A study of Mus musculus with 4 samples.

Results

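The Hcrt-high nuclei described here are the nuclei of the main neuronal cluster of the mouse hypothalamus (Neurons_1 in the deposited annotation) that held at least 20 unique molecular identifiers (UMIs, each standing for 1 captured transcript) of Hcrt, the orexin precursor gene, and fewer than 20 UMIs of Pmch, the precursor of melanin-concentrating hormone (MCH), whatever their sub-cluster. The rule found 153 nuclei among 35756 Neurons_1 nuclei, a share of 0.428% (exact 95% binomial interval 0.363 to 0.501%), and among 56386 annotated nuclei in all. Hcrt and Pmch counts chose these nuclei, so the values of both genes are given as descriptions and were not tested.

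Single-nucleus RNA profiles of whole hypothalamus were collected from adult male mice on the C57/BL6NCr background, either wild type (WT) or heterozygous for the R384C mutation of thyroid hormone receptor α1 (TRα1+m), a receptor form with reduced affinity for thyroid hormone that the animals carry in every tissue and throughout life. Each genotype was sequenced as 2 libraries, 1 in each of 2 experimental repeats, and each library pooled the nuclei of 3 mice, so a library is the unit of replication and differences between single animals cannot be seen. The annotated nuclei held 51877331 UMIs in WT replicate 1, 59112785 in WT replicate 2, 55366391 in TRα1+m replicate 1 and 47260127 in TRα1+m replicate 2. The Hcrt-high nuclei numbered 28, 65, 30 and 30 in the same order and held 170493, 406831, 171101 and 193005 UMIs, so every level given for them rests on far fewer transcripts than a level for Neurons_1 as a whole.

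Orexin neurons lie in the lateral hypothalamus and project widely through the brain, where the orexin peptides cut from the Hcrt precursor act on the receptors Hcrtr1 and Hcrtr2 to sustain wakefulness, feeding and arousal. They release glutamate and the opioid peptide dynorphin, encoded by Pdyn, beside orexin. Their neighbours, the MCH neurons, express Pmch and Cartpt and are most active during sleep.

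Hcrt lies on the minus strand of chromosome 11 (GRCm38, chr11:100761069-100762931). The 250 bases before its start (RefSeq, GRCm38.p6, chr11:100762932-100763181, minus strand) are shown because this is the promoter of the gene that defines the nuclei, with the only TATA box of the letters TATAAA in capitals.
Hcrt promoter: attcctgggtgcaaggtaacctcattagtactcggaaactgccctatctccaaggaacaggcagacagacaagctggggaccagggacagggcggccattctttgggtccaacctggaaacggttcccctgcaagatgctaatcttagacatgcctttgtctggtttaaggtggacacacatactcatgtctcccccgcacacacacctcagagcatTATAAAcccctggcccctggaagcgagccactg
The TATAAA match began 33 bases before the start, and 12.4% of 32851 promoter windows of this length held the same letters on either strand. AGGTCA, the half-site bound by nuclear receptors, and TAATTA, a homeodomain core, had no match on either strand, against 14.02% and 4.84% of all windows. These are matches of letters and not measured binding sites.

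Within the 153 nuclei Hcrt ranged from 20 to 825 UMIs with a median of 64, and Pmch had a median of 1 UMI and a highest value of 13. The nuclei were deeper than Neurons_1 as a whole, with a median of 5756 UMIs against 4380, and 6 of them held more than double the group's median depth. The authors had removed predicted doublets before deposit, and whether doublets remain among these nuclei was not tested. The limit of 20 did not lie in a gap of the distribution, although few nuclei stood near it. Among members 31 held 25 to 39 Hcrt UMIs and 13 held 20 to 24. Just outside, 21 nuclei held 15 to 19 and 39 held 10 to 14, against 9048 nuclei with a lone Hcrt UMI. A further 2 nuclei of WT replicate 2 carried both transcripts above the limit, with 304 Hcrt and 687 Pmch UMIs in the one and 196 and 2263 in the other, and were left out by the rule.

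A low Hcrt count said little about cell identity. At least 1 Hcrt UMI was present in 34.5% of oligodendrocytes at a median depth of 1605 UMIs, in 35.9% of the other Neurons_1 nuclei, and in 38.3% of the 227 nuclei that the deposited annotation labels Orexin+ at a median depth of 7387 UMIs. In WT replicates 1 and 2 and TRα1+m replicates 1 and 2 the share was 43.1, 35.3, 42.7 and 13.9% in oligodendrocytes. In the other Neurons_1 nuclei it was 43.4, 36.3, 42.4 and 14.9%, so TRα1+m replicate 2 stood apart in both. None of those 227 labelled nuclei was Hcrt-high, their highest count was 6, and 0 of 227 allows a share of up to 1.32%. Pooled over libraries, the share in the labelled sub-cluster was thus close to the background in glia, whereas the 153 Hcrt-high nuclei held 53.2% of all Hcrt UMIs of Neurons_1.

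The Hcrt level of the Hcrt-high nuclei differed more between repeats than between genotypes. In WT replicate 1 the counts ran from 20 to 152 with a median of 45.5, in WT replicate 2 from 21 to 759 with a median of 139, in TRα1+m replicate 1 from 21 to 85 with a median of 44, and in TRα1+m replicate 2 from 21 to 825 with a median of 112. Hcrt made up 1.03% of a nucleus's UMIs at the median in WT replicate 1 and 0.734% in TRα1+m replicate 1, but 2.87% in WT replicate 2 and 2.41% in TRα1+m replicate 2. Repeat 2 was therefore the higher repeat in both genotypes. The share of Neurons_1 Hcrt UMIs found in Hcrt-high nuclei followed the same order, at 20.3% and 17.6% in repeat 1 and 71.9% and 78.7% in repeat 2.

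**Figure D1:**
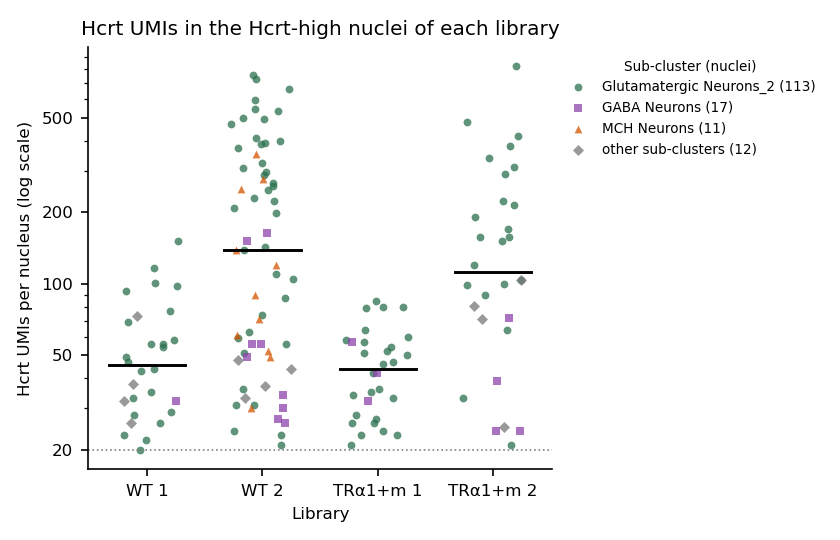
Hcrt UMIs per nucleus on a log scale for the 153 Hcrt-high nuclei in each of the 4 libraries, with colour and shape for the sub-cluster, a black bar at the library median and a dotted line at the limit of 20 UMIs. The medians lie at 45.5 and 44 in the repeat 1 libraries and at 139 and 112 in the repeat 2 libraries, whatever the genotype.

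The deposited sub-clusters placed most of these nuclei among glutamatergic neurons. Glutamatergic Neurons_2 held 113 of the 153 (73.9%), which was 2.74% of its 4121 nuclei, with 23, 41, 27 and 22 of them in WT replicates 1 and 2 and TRα1+m replicates 1 and 2. The sub-cluster GABA Neurons held 17 and MCH Neurons held 11, and the other 12 were spread over 5 sub-clusters. All 11 nuclei of the MCH sub-cluster came from WT replicate 2, and 9 of them held fewer than 2000 UMIs. The share lying outside Glutamatergic Neurons_2 was 17.9%, 36.9%, 10.0% and 26.7% in the 4 libraries, so the make-up of the group differed between libraries.

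Rfx4 and Lhx9, markers of orexin neurons that the rule did not use, were frequent in the large glutamatergic group and not detected in the GABA group, while Pdyn was present in each. The nuclei in MCH Neurons had a median depth of 1320 UMIs against 6351 in Glutamatergic Neurons_2 and 4588 in GABA Neurons, so shares of nuclei with a UMI cannot be compared directly with theirs. Rfx4, a transcription factor of the RFX family (chr10:84756062-84906538), had a UMI in 98 of the 113 nuclei of Glutamatergic Neurons_2 (86.7%, interval 79.1 to 92.4%), in 0 of the 17 in GABA Neurons, which allows a share of up to 17.6% of nuclei with a UMI, and in 2 of the 11 in MCH Neurons. Lhx9, a LIM-homeobox factor of orexin neurons (chr1:138825186-138848577), had a UMI in 56 of 113 (49.6%), 0 of 17 and 1 of 11. Pdyn, the dynorphin precursor (chr2:129686565-129699844), had a UMI in 53 of 113 (46.9%), 4 of 17 (23.5%) and 5 of 11 (45.5%). Slc17a6, the vesicular glutamate transporter, was seen in 60 of the 113 (53.1%) and 3 of the 17 (17.6%), while the vesicular GABA transporter Slc32a1 was seen in 9 of the 113 (7.96%) and 15 of the 17 (88.2%). The label of orexin neuron thus matched its markers in the 113 nuclei of Glutamatergic Neurons_2, whereas the 17 nuclei of GABA Neurons carried Hcrt at a median of 39 UMIs beside GABA transporter transcripts and without a UMI of Rfx4 or Lhx9 at their depth. Sub-clusters were built by the authors from the same transcripts, so these shares describe the nuclei and were not tested.

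Over all 153 nuclei Rfx4 had a UMI in 67.3%, Plagl1, an imprinted zinc finger factor, in 47.7%, Pdyn in 41.2% (interval 33.3 to 49.4%), Lhx9 in 37.9%, Nptx2, a secreted pentraxin of synapses, in 20.9%, and Qrfp, a neuropeptide precursor that part of the orexin neurons share, in 5.23%. In oligodendrocytes, which gave the background of free RNA, the same shares were 2.89%, 5.54%, 1.35%, 0.228%, 0.733% and 0.244%. With each nucleus thinned to 3000 UMIs, which left out 19 shallower members, Pdyn was found in 23.9% of the Hcrt-high nuclei, in 6.46% of the other nuclei of Glutamatergic Neurons_2 and in 3.04% of the other Neurons_1 nuclei (a draw of at most 2000 nuclei a library). Avp, the vasopressin gene, had a UMI in 41.8% of Hcrt-high nuclei and 41.2% of oligodendrocytes, and Oxt, the oxytocin gene, in 32.7% and 37.3%. Oligodendrocytes were shallower (median 1605 UMIs against 5756), so shares set beside theirs, here and below, are not matched for depth. The orexin receptor Hcrtr1 was not detected in any of the 153 nuclei, which allows a share of up to 1.96% of nuclei with a UMI and sets no limit on nuclei that express it. Hcrtr2 was seen in 15.7%, against 14.2% of the other Neurons_1 nuclei and 0.945% of oligodendrocytes.

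**Figure D2:**
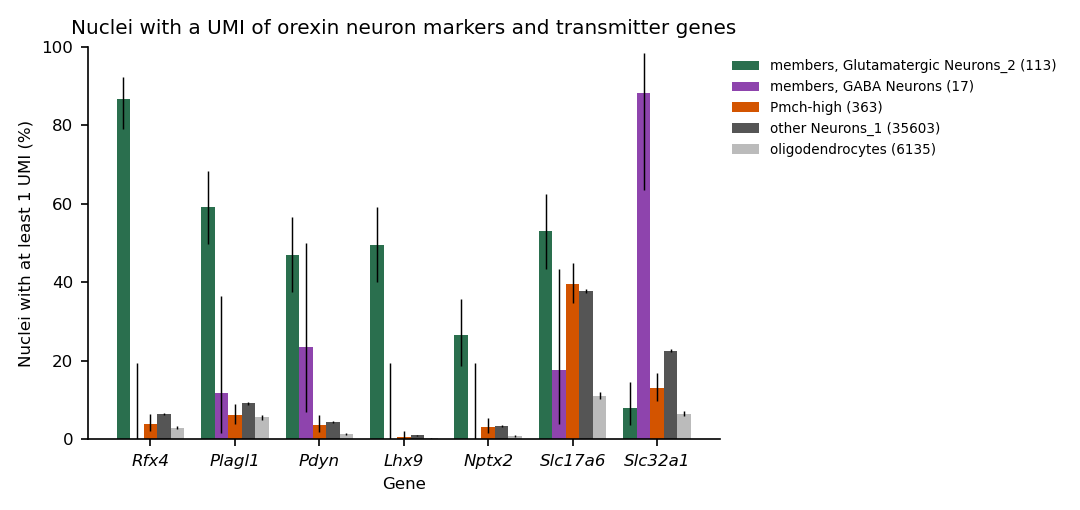
Share of nuclei with at least 1 UMI of 7 genes (bars from 0, in percent, with exact 95% binomial error bars for counting error) in the Hcrt-high nuclei of Glutamatergic Neurons_2 and of GABA Neurons, in Pmch-high nuclei, in the other Neurons_1 nuclei and in oligodendrocytes. Rfx4 stands at 86.7% in the first group and 3.86% in Pmch-high nuclei, and Slc32a1 at 88.2% in the Hcrt-high nuclei of GABA Neurons.

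Markers of other cell types were measured in the same nuclei. Summed over their marker lists in WT replicates 1 and 2 and TRα1+m replicates 1 and 2, the 5 astrocyte markers reached 176, 290, 281 and 145 CPM (UMIs of a gene scaled to a common total of UMIs in that library's nuclei of the population) with Slc1a2 the most abundant, the 5 oligodendrocyte markers 346, 649, 380 and 275 CPM, and the 4 microglia markers 35.2, 49.2, 58.4 and 82.9 CPM. The 2 markers of oligodendrocyte precursors reached 5.87, 9.83, 0 and 0 CPM with Pdgfra the more abundant, and the 5 endothelial and mural markers 29.3, 39.3, 23.4 and 10.4 CPM with Flt1 the most abundant and Vtn at 0. In astrocytes themselves the astrocyte markers summed to 5568 to 9033 CPM. Rfx4 is also expressed by astrocytes, where it was the most abundant orexin neuron marker with 5443 UMIs. In the other Neurons_1 nuclei the astrocyte markers summed to 315, 261, 419 and 193 CPM, so they were lower in Hcrt-high nuclei in 3 libraries and higher in WT replicate 2. The part of astrocyte RNA in the Rfx4 level was not tested.

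The Hcrt-high nuclei overlapped between the genotypes in their share of Neurons_1. They made up 0.293% of Neurons_1 nuclei in WT replicate 1 (28 of 9564, interval 0.195 to 0.423%), 0.743% in WT replicate 2 (65 of 8749, 0.574 to 0.946%), 0.283% in TRα1+m replicate 1 (30 of 10619, 0.191 to 0.403%) and 0.440% in TRα1+m replicate 2 (30 of 6824, 0.297 to 0.627%). WT replicate 2 stood above the rest, and the 2 mutant values lay between the 2 WT values or just under them. The WT mean was 0.518% ± 0.318 (SD, n = 2) and the TRα1+m mean 0.361% ± 0.111 (SD, n = 2). A two-sided exact permutation test over libraries gave p = 0.667. With 2 libraries against 2 that test cannot reach below 0.333, so it could not decide whether the number differed. The number also follows from the Hcrt and Pmch counts that the rule used. The ratio of TRα1+m to WT was 0.697 in all, 0.965 within repeat 1 and 0.592 within repeat 2, and without WT replicate 2 it turned to 1.23. Without the 11 nuclei of the sub-cluster MCH Neurons it was 0.794. Since the rule counts Hcrt transcripts, a lower number of nuclei and a lower Hcrt level per nucleus cannot be told apart here. Hcrt itself stood at 8980 and 32933 CPM in WT and 8019 and 27916 CPM in TRα1+m Hcrt-high nuclei, a ratio of TRα1+m to WT of 0.893 within repeat 1 and 0.848 within repeat 2, and the spread between repeats was larger than any distance between genotypes.

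The Pmch-high nuclei, the neighbouring MCH population chosen by the mirrored rule (at least 20 Pmch and fewer than 20 Hcrt UMIs), numbered 55, 144, 75 and 89 and so were also most frequent in WT replicate 2. For each Pmch-high nucleus there were 0.509 and 0.451 Hcrt-high nuclei in WT and 0.400 and 0.337 in TRα1+m. The groups did not overlap in this ratio, which was lower in TRα1+m within each repeat, but the exact permutation test over 2 libraries against 2 cannot go below 0.333 and no other test was run on it.

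**Figure D3:**
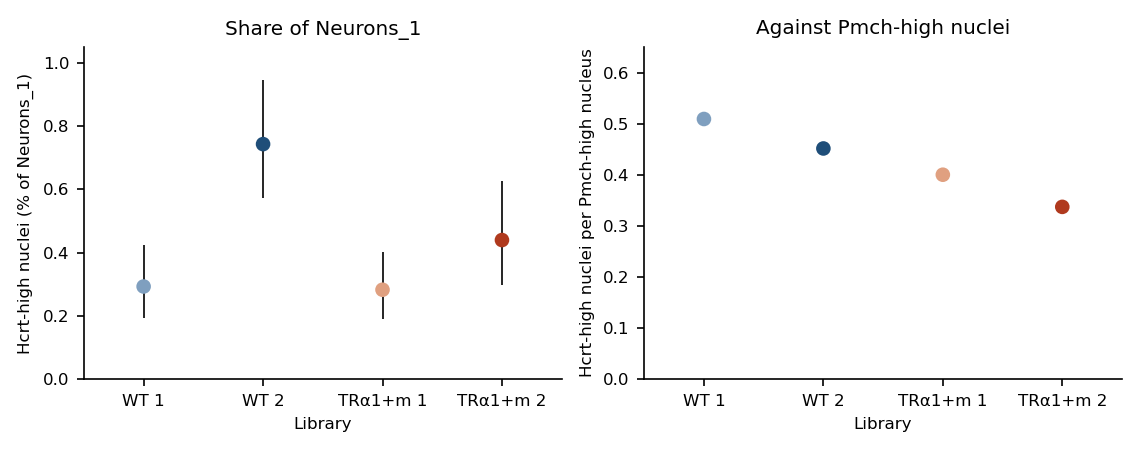
Left, Hcrt-high nuclei as a percentage of Neurons_1 nuclei in each library with exact 95% binomial intervals. Right, Hcrt-high nuclei per Pmch-high nucleus in the same libraries, from 0.509 in WT replicate 1 down to 0.337 in TRα1+m replicate 2.

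Pdyn varied with the repeat more than with the genotype. Its level was 46.9 CPM in WT replicate 1, 143 in WT replicate 2, 87.7 in TRα1+m replicate 1 and 166 in TRα1+m replicate 2, and the share of Hcrt-high nuclei with a Pdyn UMI was 25%, 47.7%, 33.3% and 50%. The shares averaged 36.3% ± 16 in WT and 41.7% ± 11.8 in TRα1+m (SD, n = 2 each), a difference of 5.32 percentage points with p = 0.667 in the exact permutation test over libraries. Within each repeat both the level and the share of Pdyn were higher in TRα1+m, by less than the distance between the repeats. The difference turned to -6.03 points without WT replicate 1 and to -3.01 points without TRα1+m replicate 2.

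To find what set the Hcrt-high nuclei apart from other hypothalamic neurons, their UMIs were summed per library and compared with the sums of the other 35603 Neurons_1 nuclei, with the library as a block. Hcrt-high nuclei carried the transcription factors Rfx4 and Lhx9, the synaptic organiser C1ql3, the peptide-processing enzyme Pcsk1 and the thyrotropin-releasing hormone receptor Trhr at several times the level of other neurons, and less of the GABA genes and of most other neuropeptides. Of 18085 genes tested in edgeR, 1365 (7.55%) passed an adjusted p of 0.05, 510 of them higher (2.82%) and 855 lower (4.73%) in Hcrt-high nuclei. The median log2 difference of all genes was -0.19, and with another scaling (RLE factors, median -0.08) the same fit called 642 higher and 630 lower, so the direction of small differences depends on the scaling. Without the 11 nuclei of the sub-cluster MCH Neurons 1424 genes passed. DESeq2 called 842 genes and the fit without the block 799. Beside the 4008 other nuclei of Glutamatergic Neurons_2 alone, 1653 of 13968 genes (11.8%) passed, 620 higher and 1033 lower.

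All 6 orexin neuron markers left after Hcrt were higher in Hcrt-high nuclei, with a median log2 difference of 3.67 beside the -0.19 of all genes. Rfx4 stood at 739, 433, 871 and 544 CPM in WT replicates 1 and 2 and TRα1+m replicates 1 and 2, with a mean of 647 ± 196 (SD, n = 4) against 15.6 ± 4.13 in the other neurons (log2 5.26, SE 0.13). Lhx9 stood at 123, 81.1, 140 and 124 CPM against a mean of 2.32 (log2 5.61, SE 0.28). For both factors the lowest library of Hcrt-high nuclei lay far above the highest library of other neurons. Plagl1 averaged 157 CPM against 24.7 (log2 2.49), Pdyn 111 against 12.1 (3.10) and Nptx2 40.7 against 7.95 (2.24). Qrfp reached 5.87 and 73.7 CPM in WT and 0 and 51.8 CPM in TRα1+m, so its difference (log2 4.23) rested on the repeat 2 libraries. Within Glutamatergic Neurons_2, Nptx2 no longer differed beyond the threshold (log2 0.27, adjusted p = 0.66, edgeR) while the others did.

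The 15 genes with the largest difference upward, among those of at least 20 CPM that were higher in all 4 libraries, held Lhx9 and Rfx4, 5 other named genes and 8 noncoding or poorly characterised transcripts. C1ql3, a secreted C1q-like protein that binds at synapses, stood at 305, 322, 660 and 430 CPM (mean 429 ± 164) against 19.7 ± 4.44 in other neurons (log2 4.34, SE 0.14). Ros1, a receptor tyrosine kinase, averaged 123 CPM against 5.40 (log2 4.23), Casr, the calcium-sensing receptor, 24.3 against 1.4 (3.90), and Vgll2, a vestigial-like cofactor of transcription, 35.4 against 1.08 (4.78). Csta2, a stefin of a family of near-identical genes to which reads may be assigned with uncertainty, averaged 137 CPM against 5.40 (log2 4.55). The 8 transcripts were led by 4930548K13Rik (chr4:26635820-26705449), at 36.5 CPM against 0.204 (log2 7.21), and Gm32405 (chr15:73994069-74000913), at 20.9 against 0.189 (log2 6.65), with 4932435O22Rik, 1700123O12Rik, Gm867, Gm13849, Gm20743 and Gm28501 between log2 3.73 and 5.55. All 15 differences also passed against the other nuclei of Glutamatergic Neurons_2.

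**Figure D4:**
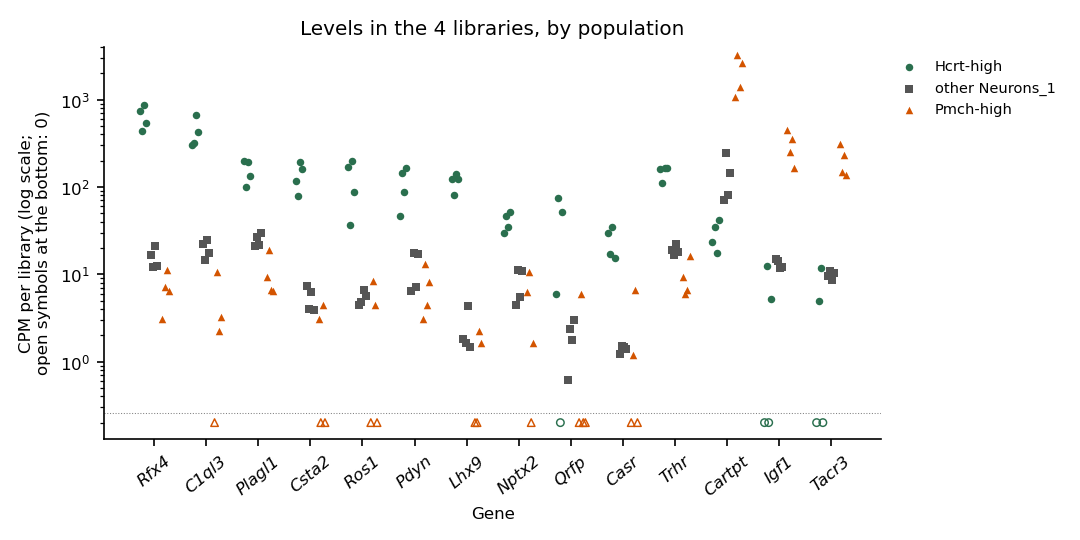
Levels of 14 genes in CPM on a log scale, 1 symbol per library, in Hcrt-high nuclei, the other Neurons_1 nuclei and Pmch-high nuclei, with open symbols at the bottom for values of 0. Rfx4 and C1ql3 lie at 305 CPM or more in each library of Hcrt-high nuclei and at 24.5 CPM or less in the other populations, whereas Cartpt, Igf1 and Tacr3 lie highest in Pmch-high nuclei.

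Downward, the 8 genes with the largest differences had few transcripts in Hcrt-high nuclei. Ebf2 and Ebf3 are early B-cell factors of transcription. Ebf2 had 1 UMI in all Hcrt-high nuclei together, and Ebf3 averaged 3.82 CPM against 29.0. For Ebf2 the ratio to the other neurons was 0.0394, with a counting interval of 0.000997 to 0.220. Htr2a, a serotonin receptor, averaged 3.99 CPM against 24.4 (log2 -2.66), Kcnh8, a potassium channel, 8.69 against 61.2 (-2.60), and Gulp1, an engulfment adaptor, 7.54 against 50 (-2.80). Gzmk, 4930590L20Rik and Gm49171 were seen with 3, 2 and 3 UMIs. Against the other nuclei of Glutamatergic Neurons_2, Ebf3 was at log2 0.39 and did not pass.

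Among 13 genes for peptide processing and secretory granules, 4 were higher and 5 lower, with a median log2 difference of -0.10 beside -0.19 for all genes. Pcsk1, the prohormone convertase that makes early cuts in precursors, stood at 246, 263, 292 and 430 CPM against a mean of 44.8 (log2 2.66, SE 0.14), and Scg2, secretogranin II, at 751, 1379, 1134 and 1720 CPM against 403 (1.53, SE 0.11). Both were higher than other neurons in 4 of 4 libraries. Pam, which amidates peptides as orexins are amidated, averaged 952 CPM against 602 (0.54), and Vgf, a granule protein, 173 against 104 (0.64) but was lower in WT replicate 1. Lower were Cadps2 (-1.74), Chga (-0.91), Scg5 (-0.66), Pcsk1n (-0.59) and Cpe (-0.44), while Pcsk2 was at 407 CPM against 411.

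Of 19 other neuropeptide genes tested, none was higher and 12 were lower, with a median of -1.28. Gal averaged 64.6 CPM against 127, Oxt 97.2 against 358 and Npy 18.1 against 52.7, and Npvf had 0 UMIs, at least 3.68-fold lower over the group. Measured against the other nuclei of Glutamatergic Neurons_2 alone, 6 of the 12 turned to the other sign (Gal, Npy, Nts, Cck, Sst and Tac2), none of them past the threshold. Among 7 fast transmitter genes 3 were lower, among them Gad2 (63.6 CPM against 148) and Slc32a1 (37.5 against 76.4), and none was higher, with Slc17a6 at 129 CPM against 150 (adjusted p = 0.36, edgeR). Slc32a1 turned to a called log2 difference of 1.35 against Glutamatergic Neurons_2, and the 17 Hcrt-high nuclei of the sub-cluster GABA Neurons are part of that value. None of 8 monoamine and acetylcholine genes tested passed.

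Receptor genes studied in orexin neurons went both ways: 5 of 34 were higher and 6 lower, with a median of -0.64 beside -0.19. Trhr, the receptor for thyrotropin-releasing hormone, stood at 158, 111, 164 and 166 CPM against 18.8 ± 2.37 (log2 2.87, SE 0.20), with no overlap between the populations. Htr2c, a serotonin receptor, averaged 864 CPM against 426 (0.89), Oprk1, the κ-opioid receptor that dynorphin binds, 64.2 against 27.2 (1.12), Crhr2, a receptor for urocortins, 23.3 against 4.16 (2.32), and Ntsr1, a neurotensin receptor, 30.7 against 7.45 (1.75). Chrm3, a muscarinic receptor, averaged 63.0 CPM against 349 (-2.35), and Gabbr2 (-1.18), Oprm1 (-0.99), Npsr1 (-0.98), Cnr1 (-0.77) and Gabbr1 (-0.50) were lower too. Of 24 excitability channels Abcc8, the sulfonylurea subunit of ATP-gated potassium channels, was higher (37.2 CPM against 17, log2 1.15) and 10 were lower, among them the cation channels Trpc5 (51.2 CPM against 202) and Trpc4 (23.5 against 76.4) and the M-current subunit Kcnq3 (288 against 582).

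Of 26 hypothalamic transcription factors tested, only Rfx4 and Lhx9 were higher, and Ebf1, Ebf3, Sim1, Meis2, Isl1, Lmx1a and Nkx2-1 were lower. Against the other nuclei of Glutamatergic Neurons_2, 5 of these 7 turned to the other sign (Ebf1, Ebf3, Sim1, Meis2 and Lmx1a), Ebf1 past the threshold at log2 1.43. Of 16 thyroid hormone receptor, transport and metabolism genes 3 were lower and none higher. Of these, Thrb, the second thyroid hormone receptor, averaged 161 CPM against 225 (log2 -0.60) and Slc16a10, an amino acid and thyroid hormone transporter, 3.69 against 28.5 (-2.35), the latter with UMIs in WT replicate 2 alone. Thra, the gene mutated in TRα1+m mice, stood at 83.8 CPM against 96.2 (adjusted p = 0.46, edgeR). A Thra UMI was seen in 40.5% of Hcrt-high nuclei, 35.6% of the other Neurons_1 nuclei and 32.5% of oligodendrocytes. The paper reports oligodendrocytes as the cell type most affected by the mutant receptor, so their Thra share is not read as free RNA. Of 12 thyroid hormone response genes Mamld1 was higher (log2 0.68) and Dgkg, a diacylglycerol kinase, lower (-1.56). None of 9 immediate early genes, 5 astrocyte, 2 precursor and 4 microglia markers passed, Mog of the 5 oligodendrocyte markers was lower with 1 UMI, and Vtn, Rgs5, Flt1 and Cldn5 of the 5 endothelial and mural markers were lower, of which Flt1 (log2 2.67, past the threshold) and Cldn5 (0.99, not past it) turned to the other sign against the other nuclei of Glutamatergic Neurons_2.

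Set beside the 363 Pmch-high nuclei, their neighbours in the lateral hypothalamus, the Hcrt-high nuclei differed in a larger share of the genes tested, which here were the more abundant ones. Of 7374 genes tested 1032 (14%) passed, 469 higher (6.36%) and 563 lower (7.63%) in Hcrt-high nuclei, with a median of all genes of -0.01. DESeq2 called 512 and the fit without the block 577. The 6 orexin neuron markers were again all higher (median log2 3.82) and the MCH markers Cartpt and Tacr3 both lower. Rfx4 averaged 6.95 CPM in Pmch-high nuclei (log2 6.18, SE 0.22) and C1ql3 4.05 (6.06, SE 0.28). Lhx9 had 102 UMIs in Hcrt-high nuclei and 2 in Pmch-high nuclei, a ratio of 121 with a counting interval of 32.6 to 1012, and 1700123O12Rik and 4930548K13Rik, without a UMI in Pmch-high nuclei, were at least 30.0-fold and 26.9-fold higher over the group. Csta2, Gm867, Gm13849, Gm19410 and Vgll2 completed the 10 largest, with 1 to 3 UMIs in Pmch-high nuclei.

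In the other direction Cartpt, the precursor of the CART peptide, stood at 23.5, 34.4, 17.5 and 41.5 CPM in Hcrt-high nuclei against a mean of 2068 in Pmch-high nuclei (log2 -6.34, SE 0.21). Igf1, insulin-like growth factor 1, averaged 4.37 CPM against 304 (-5.58), and Tacr3, the neurokinin B receptor, 4.15 against 207 (-5.53). Kcng3, a modifier subunit of potassium channels, Otx1, a homeodomain factor, and Mup6, of the near-identical major urinary protein genes, had no UMI in Hcrt-high nuclei and were at least 20.8-fold, 7.17-fold and 15.2-fold lower. Dab2, Adgrf5 and Rbm47 had 1 UMI each and Rspo3, an activator of WNT signalling, had 3. These genes were picked for their difference between the 2 populations, so their low counts on the other side are a description.

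Genes of the same lists separated Hcrt-high from Pmch-high nuclei in smaller steps. Pcsk1 averaged 308 CPM in Hcrt-high against 26.6 in Pmch-high nuclei (log2 3.21) and Scg2 1246 against 252 (2.17), whereas the convertase Pcsk2 averaged 407 against 1996 (-2.36), and Vgf and Pam were higher and Chga, Pcsk1n and Cpe lower among the 13. Trhr (150 CPM against 9.51, log2 3.76), Oprk1 (1.29) and Ntsr1 (2.18) were higher and Chrm3 (-1.0) and Gabbr1 (-0.47) lower of 14 receptors tested. Of 18 channels 2 were higher, among them Kcnj3, a G protein-gated potassium channel (0.72), and 6 were lower. Of 10 neuropeptides Sst was higher (103 CPM against 42.9), but 83 of its 129 UMIs in Hcrt-high nuclei (64.3%) came from a single nucleus of WT replicate 2. Gad1 (44.4 CPM against 87.2), Dgkg (41.5 against 84.8), Nkx2-1 and Zic1 were lower, and Slc17a6 was at 129 CPM against 105 (adjusted p = 0.71, edgeR).

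The genotype comparison within Hcrt-high nuclei asked whether the mutant receptor changed transcripts of these neurons. No gene of 3916 tested passed the threshold in edgeR without a block (0% called), 102 had an unadjusted p under 0.05, and DESeq2 also called 0, with 19 at an unadjusted p under 0.05. The 5 genes with the smallest p had adjusted p-values of 0.999 in edgeR. Egfem1, a membrane protein with EGF-like repeats, stood at 158 and 234 CPM in WT and 397 and 674 in TRα1+m (log2 1.42, SE 0.33), and AC149090.1, on an unplaced scaffold and with an uncertain copy number, at 287 and 261 against 830 and 466 (1.24). The paper reports AC149090.1 as higher in TRα1+m in most of its neuronal sub-clusters, by a test over nuclei. It was not among the genes whose genotype effect differed from that of other neurons, given below. Arhgap6, a RhoGAP, stood at 158 and 118 CPM in WT against 23.4 and 41.5 (-2.02, SE 0.45), Mgat4c, a glycosyltransferase, at 821 and 868 against 374 and 487 (-0.97), and Zbtb20, a zinc finger repressor, at 657 and 720 against 403 and 363 (-0.85). The 2 libraries of one genotype did not overlap those of the other in these 5 genes, which were picked for their small p. That is a description, since the share of all tested genes without overlap was not counted. For Arhgap6, 20 of the 27 UMIs of WT replicate 1 lay in a single nucleus, and with the nucleus of most UMIs left out of each library the gene stood at 42.3 and 89.4 CPM in WT against 12.0 and 26.7 in TRα1+m.

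The repeat numbers pair libraries that were prepared together, and with the repeat as a block the same edgeR test called 34 genes (0.868%), 11 higher and 23 lower in TRα1+m. The 5 genes named above were among them, Egfem1 with an adjusted p of 9.17e-08 and Arhgap6 with 0.00131. Sgcz, a sarcoglycan, had the smallest (adjusted p = 7.22e-10), at 792 and 1283 CPM in WT and 263 and 549 in TRα1+m, lower within each repeat. C1ql3, among the 15 genes that set Hcrt-high nuclei apart from other neurons, was higher, at 305 and 322 CPM in WT and 660 and 430 in TRα1+m (log2 0.73, adjusted p = 0.0397). Fgf1, a fibroblast growth factor, was higher, and Cadps2, Cacna2d3, Kcnt2 and Rbfox1 were lower. DESeq2 with the same block called 0, so these calls rest on the edgeR fit. With the nucleus that held most UMIs of the gene left out of each library, 32 of the 34 kept their direction in both repeats, and Gpc5 and B230216N24Rik did not. The 34 were picked from the same sums, and the share of all tested genes that keep their direction was not counted. This is therefore a description. The noncoding RNA Malat1 was called higher, at 50847 and 20156 CPM in WT and 59877 and 36258 in TRα1+m. The median mitochondrial share of Hcrt-high nuclei was 0.764 and 1.17% in WT and 0.683 and 0.636% in TRα1+m, lower within each repeat. The part of RNA quality in the calls was not tested.

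The Hcrt-high nuclei outside Glutamatergic Neurons_2 were more frequent in WT than in TRα1+m within each repeat (17.9% against 10.0% and 36.9% against 26.7%). All 23 genes called lower in TRα1+m had a lower level in Hcrt-high nuclei than in the other neurons, as did 57.7% of all genes tested and 3 of the 11 called higher. The part of this make-up in the calls was not tested. With the 113 nuclei of Glutamatergic Neurons_2 alone and the same block 19 genes were called, 5 higher and 14 lower, 17 of them among the 34. C1ql3 (log2 0.64, adjusted p = 0.157, edgeR) and Fgf1 (log2 1.42, adjusted p = 0.0941, edgeR) kept their sign there but did not pass. Cadps2 and Cacna2d3 passed. Sgcz stood at 833 and 969 CPM in WT and 258 and 115 in TRα1+m in these nuclei and passed without the block too (log2 -2.26, adjusted p = 0.0196, edgeR), where it was the only gene called.

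None of the listed orexin neuron markers (Rfx4, Lhx9, Pdyn and Plagl1 were abundant enough to be tested, and C1ql3 is not on that list) passed with or without the block, and of the 4 tested Pdyn had a log2 difference of 0.29 (SE 0.52), Rfx4 of 0.29 (SE 0.31), Lhx9 of 0.43 (SE 0.35) and Plagl1 of 0.20 (SE 0.39), TRα1+m minus WT. Thra was at -0.10 (SE 0.41) and Thrb at -0.39 (SE 0.34). Without the block none of the 13 peptide-processing genes, 6 other neuropeptides, 4 fast transmitter genes, 8 receptors, 11 channels, 7 thyroid hormone genes, 2 thyroid hormone response genes, 1 astrocyte and 2 oligodendrocyte markers tested passed, and the remaining lists had no tested gene beyond Rfx4 and Lhx9. With the block Cadps2 of the 13 peptide-processing genes (adjusted p = 0.0267, edgeR), Sst of the 6 neuropeptides (0.0156) and 1 of the 11 channels were called lower in TRα1+m. Single nuclei held 83 of the 98 Sst UMIs of WT replicate 2 and 14 of the 15 of TRα1+m replicate 2. For Cadps2 they held 19 of the 26 UMIs of WT replicate 1 and 10 of the 13 of TRα1+m replicate 2. With the nucleus of most UMIs left out of each library Sst stood at 48.6 and 38.3 CPM in WT against 24.8 and 5.29 in TRα1+m, and Cadps2 at 43.9 and 87.2 against 6.02 and 16.2. Both genes thus stayed lower in TRα1+m within each repeat, but on few UMIs and at lower levels. In TRα1+m replicate 1 there were 6 Sst and 2 Cadps2 UMIs before any nucleus was left out. Sst in WT replicate 2 fell from 241 to 38.3 CPM without its top nucleus.

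A test of the difference itself compared the genotype effect in Hcrt-high nuclei with that in the other Neurons_1 nuclei of the same libraries. Of 18085 genes 8 (0.0442%) passed in edgeR, with 562 at an unadjusted p under 0.05, while DESeq2 called 0, with 159 at an unadjusted p under 0.05. Sgcz fell in Hcrt-high nuclei as given, and stood at 3185 and 3043 CPM in WT and 2644 and 2627 in TRα1+m in the others (log2 difference of the effects -1.15, SE 0.24, adjusted p = 0.00415). Dgkb, a diacylglycerol kinase, stood at 405 and 902 CPM against 263 and 254 in Hcrt-high nuclei (-1.18, adjusted p = 0.00834), with 29 of the 69 UMIs of WT replicate 1 in a single nucleus. With the nucleus of most UMIs left out of each library Dgkb stood at 251 and 723 CPM against 244 and 221, so its difference within repeat 1 rested on such nuclei. Egfem1 went the other way (1.26, adjusted p = 0.00415). Gm32647, Tmem163, Hs6st2, Arhgap6 and Sst were called with a lower effect in Hcrt-high nuclei and rested on few nuclei: Gm32647 had UMIs in 22, Tmem163 in 18 and Arhgap6 in 28. The bias-adjusted variant of the edgeR fit called 0, with an adjusted p of 0.977 for all 8.

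**Figure D5:**
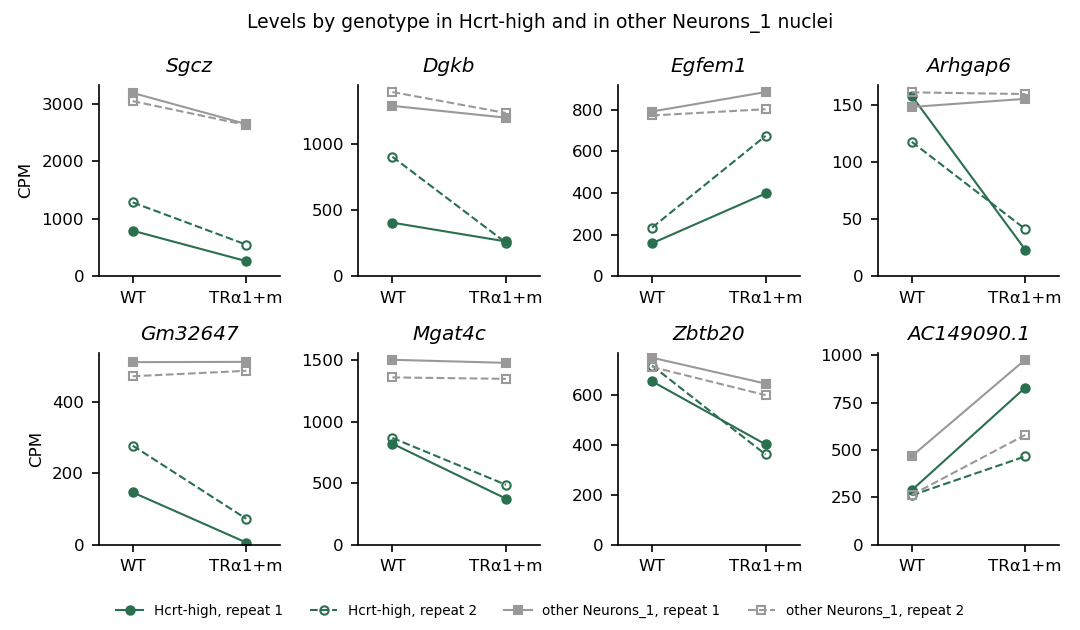
Levels in CPM (axes from 0) of 8 genes in WT and TRα1+m libraries, with the libraries of a repeat joined by a line, in Hcrt-high nuclei and in the other Neurons_1 nuclei. Sgcz falls from 792 to 263 and from 1283 to 549 CPM in Hcrt-high nuclei, and from 3185 to 2644 and from 3043 to 2627 in the others.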

How the data were processed

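The authors isolated nuclei from frozen hypothalamus, pooled 3 mice a library, and made 10x libraries. Per the labels, Cell Ranger 5.0.1 counted them against mm10, and the deposited values are raw UMI counts per gene and nucleus, intronic reads included. The authors then filtered nuclei by counts, features, mitochondrial share and doublet score, and clustered them in Seurat. Their annotation was used for main clusters and sub-clusters.

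Hcrt-high nuclei were picked by Hcrt and Pmch counts, and counts were summed per library and population. Of 68190 barcodes in the files, 56386 are annotated. Barcodes were matched within libraries, since 471 sequences occur in 2 libraries, none of them shared between members. Sums were tested in edgeR 4.0.16 (quasi-likelihood, TMM, filterByExpr, Benjamini-Hochberg over all genes tested, two-sided, threshold 0.05) in R 4.3.3, with DESeq2 1.42.0 as an alternative. Hcrt and Pmch were left out of calls. Single values per library had exact permutation tests, and p-values measure the spread between pools of mice. Intervals are exact binomial (95%) or Poisson-based and cover counting error only, and a count of 0 was read as at most 3 counts. Gene positions are from GENCODE vM21 on GRCm38. Antisense and overlapping genes, among them 4930590L20Rik, Gm28501, Gm867 and 1700123O12Rik, and multigene families are uncertain, because introns were counted.

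The study's methods describe 2 independent repeats with 1 library of each genotype, and deviations from the genotype means correlated within repeats (r = 0.384 over 3918 genes in Hcrt-high nuclei, 0.879 in the others), so repeat numbers were taken to pair the samples. Within Hcrt-high nuclei 246 of 3916 genes differed between repeats.

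The members and the 17 gene lists were chosen with earlier results of these data known. Genes were named from the lists; as the 15 highest and 8 lowest against other neurons and the 10 highest and 10 lowest against Pmch-high nuclei, with at least 20 CPM and the same direction in 4 libraries; as the 5 smallest p for genotype; and as the 5 most like Hcrt over nuclei. Genes named for the block and the interaction, and Hmcn1, were named after their values were seen, beyond these rules. The fits were tested on simulated data. Alternatives were other scalings, filters, limits, depths, blocks and left-out libraries. Leaving out single nuclei was chosen after seeing the data. Some genes counted in the lists are not reported here by name.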

Additional observations from a re-analysis of the deposited data

Results flagged for a closer look

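In 8 genes the effect of genotype differed between Hcrt-high nuclei and the other Neurons_1 nuclei by the edgeR test of that difference, while DESeq2, the bias-adjusted edgeR fit and the fit without the block each called 0. The log2 difference of the effects was -2.50 for Gm32647 (adjusted p = 8.82e-06), -4.36 for Tmem163, 1.26 for Egfem1, -1.15 for Sgcz, -2.06 for Arhgap6 and -3.11 for Hs6st2 (adjusted p = 0.00415 each), -1.18 for Dgkb (0.00834) and -1.63 for Sst (0.0230). Gm32647 stood at 147, 278, 5.84 and 72.5 CPM in Hcrt-high nuclei of WT replicates 1 and 2 and TRα1+m replicates 1 and 2, against 512, 473, 513 and 488 in the others. Tmem163 stood at 29.3, 76.2, 5.84 and 0 CPM and Hs6st2 at 29.3, 103, 11.7 and 5.18, from 37 and 50 UMIs in all. Arhgap6 had 20 of its 87 UMIs in a single nucleus of WT replicate 1, and Sst 83 of 129 in a single nucleus of WT replicate 2. With Hcrt-high nuclei of Glutamatergic Neurons_2 alone, Sgcz and Sst of the 8 passed. With the nucleus of most UMIs left out of each library, all 8 kept their direction between genotypes in both repeats of the Hcrt-high nuclei. That is a description, since the 8 were picked from the same sums and the share of all genes doing so was not counted. For Dgkb little but the sign was left in repeat 1, at 251 CPM in WT against 244 in TRα1+m. The part of the sub-cluster make-up in the calls was not tested.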

How the results depend on the processing

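The ratio of Hcrt-high nuclei (TRα1+m to WT) lay between 0.638 and 0.834 under other limits, denominators, depths and sub-clusters, and between 0.486 and 1.23 with 1 library left out. Under the same limits, denominators, depths and sub-clusters it ran from 0.955 to 1.22 within repeat 1, where its direction thus turned. Within repeat 2 it ran from 0.513 to 0.722. The Hcrt level ratio was 0.857 (0.893 and 0.848 within repeats), with 0.806 for the median over nuclei and 0.383 to 2.00 with 1 library left out (1.33 without TRα1+m replicate 1, 2.00 without WT replicate 2). The difference in Pdyn share was 4.66 points at 3000 UMIs, and -6.03 to 16.7 points with 1 library left out (-3.01 without TRα1+m replicate 2).

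For genotype the count of 0 became 5 without a filter on low counts, 1 with members in Glutamatergic Neurons_2, and 3 to 16 with 1 library left out (16 without TRα1+m replicate 2, 12 without WT replicate 1). With the replicate block it was 34, also 34 in the bias-adjusted fit with the block, 19 with members in Glutamatergic Neurons_2 and the block, and 0 in DESeq2 with the block. Against other neurons 1365 became 842 in DESeq2 and 799 without the block, and 954 to 1134 with 1 library left out. Against Pmch-high nuclei 1032 became 512 and 577, and 744 to 823. The 8 interaction calls became 0 in DESeq2, 0 in the bias-adjusted fit, 0 without the block, and 4 to 11 with 1 library left out (4 without WT replicate 2 or TRα1+m replicate 1). The cause of these shifts was not tested, beyond the smaller number of samples or nuclei.

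Against the other nuclei of Glutamatergic Neurons_2, 16 of 84 named genes changed sign, with log2 differences of 0.19 (Cck), 0.99 (Cldn5), 1.43 (Ebf1), 0.39 (Ebf3), 2.67 (Flt1), 0.42 (Gad2), 0.40 (Gal), 1.39 (Lmx1a), 0.079 (Meis2), 0.33 (Npy), 0.23 (Nts), 0.0038 (Oprm1), 1.23 (Sim1), 1.35 (Slc32a1), 0.54 (Sst) and 0.018 (Tac2). With RLE factors 78 of 88 named genes kept their call against other neurons and 49 of 49 against Pmch-high nuclei, in DESeq2 61 and 36, and none changed direction. Depth limits genes under a few CPM, where 1 UMI in Hcrt-high nuclei is worth 2.46 to 5.87 CPM.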

Other observations

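Over the 153 Hcrt-high nuclei the genes whose level was most like that of Hcrt, by Spearman's correlation of log2(UMIs per 10000 + 1) among 3854 genes, were the granule protein gene Scg2 (rho 0.568), Pdyn (0.423), the membrane protein gene Itm2b (0.409), Resp18, an endocrine granule gene (0.337), and Vgf (0.319). Within libraries Scg2 ran from 0.352 to 0.622, Pdyn from 0.0825 to 0.543, Itm2b from 0.273 to 0.497, Resp18 from 0.118 to 0.322 and Vgf from -0.0722 to 0.353. Hmcn1, at 0.290 over all nuclei, ran from 0.181 to 0.728, so the pooled order need not hold within libraries. The nuclei share libraries, depth and the strong difference between repeats, so these values are descriptions.

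Nuclei with at least 20 Hcrt UMIs were also found among 9 astrocytes, 7 oligodendrocytes and 1 oligodendrocyte precursor by the deposited annotation, with 20 to 215 Hcrt UMIs and a median depth of 1850 UMIs. A further 107 barcodes that the annotation does not hold carried at least 20 Hcrt UMIs, 11 and 51 in the WT and 9 and 36 in the TRα1+m libraries, with a median of 87 Hcrt UMIs at a median depth of 888 UMIs. Of these, 65 fell under the study's limits of 900 UMIs or 700 genes, 23 exceeded only the limit of 5% mitochondrial UMIs, and 19 lay within these limits. As in the annotated nuclei, most came from repeat 2.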
